A study of Mus musculus with 16 samples.

Results

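The transcripts of mouse annulus fibrosus at postnatal day 28 (P28) were compared with those at postnatal day 21 (P21), the last week that the study sampled. The comparison used 8 of the 16 libraries, chosen by their age labels, and covered 17577 of the 17724 genes in the table, those with a mean of at least 10 normalised reads. All mice were C57BL/6 and labelled wild-type, with no treatment and no altered allele in either group. Each library was a pool of tail annulus from 2 to 3 mice of both sexes, with 10 discs taken from each mouse, so that P-values measure the spread between pools and not between single animals. The 4 pools at P5 and the 4 at P14 entered the fit only to estimate that spread, and their levels are given where they help to place a gene.

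The annulus fibrosus is the layered collagen ring that surrounds the soft nucleus pulposus of the intervertebral disc and ties it to the bony vertebrae. Its cells make type I collagen toward the outside and type II collagen and aggrecan toward the inside. After birth the ring grows fast and then slows, while the adjoining end plates and ring apophyses turn to bone. In many mouse tissues the slowing of growth after birth goes with the silencing of a group of imprinted genes, which are read from only one parental copy.

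At P28, 21 genes were higher and 17 were lower than at P21 (limma, Benjamini-Hochberg adjusted p under 0.05 over all genes tested). These were 0.119% and 0.0967% of the genes tested, or 0.216% together. In all 38 genes the 4 libraries of one age lay beyond the 4 of the other. Separation without overlap was itself more frequent than a call, since 683 genes lay wholly above (3.89%) and 498 wholly below (2.83%). At an unadjusted limma p under 0.05, 1020 of the 17577 genes tested were higher and 1076 lower. The counts of separated genes and of unadjusted p given for lists below are to be read beside these. The genes that rose included a pair of Y RNAs, genes of secreted matrix proteins, the osteocyte gene Phex, the FGF-linked transcription factors Etv4 and Etv5, and the receptors Pdgfra and Unc5b. Those that fell included the imprinted growth genes Dlk1, Peg3, Zim1 and Plagl1, the Hedgehog antagonist Hhip, the collagen prolyl hydroxylase P4ha3 and the guidance ligand Netrin-1.

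**Figure D1:**
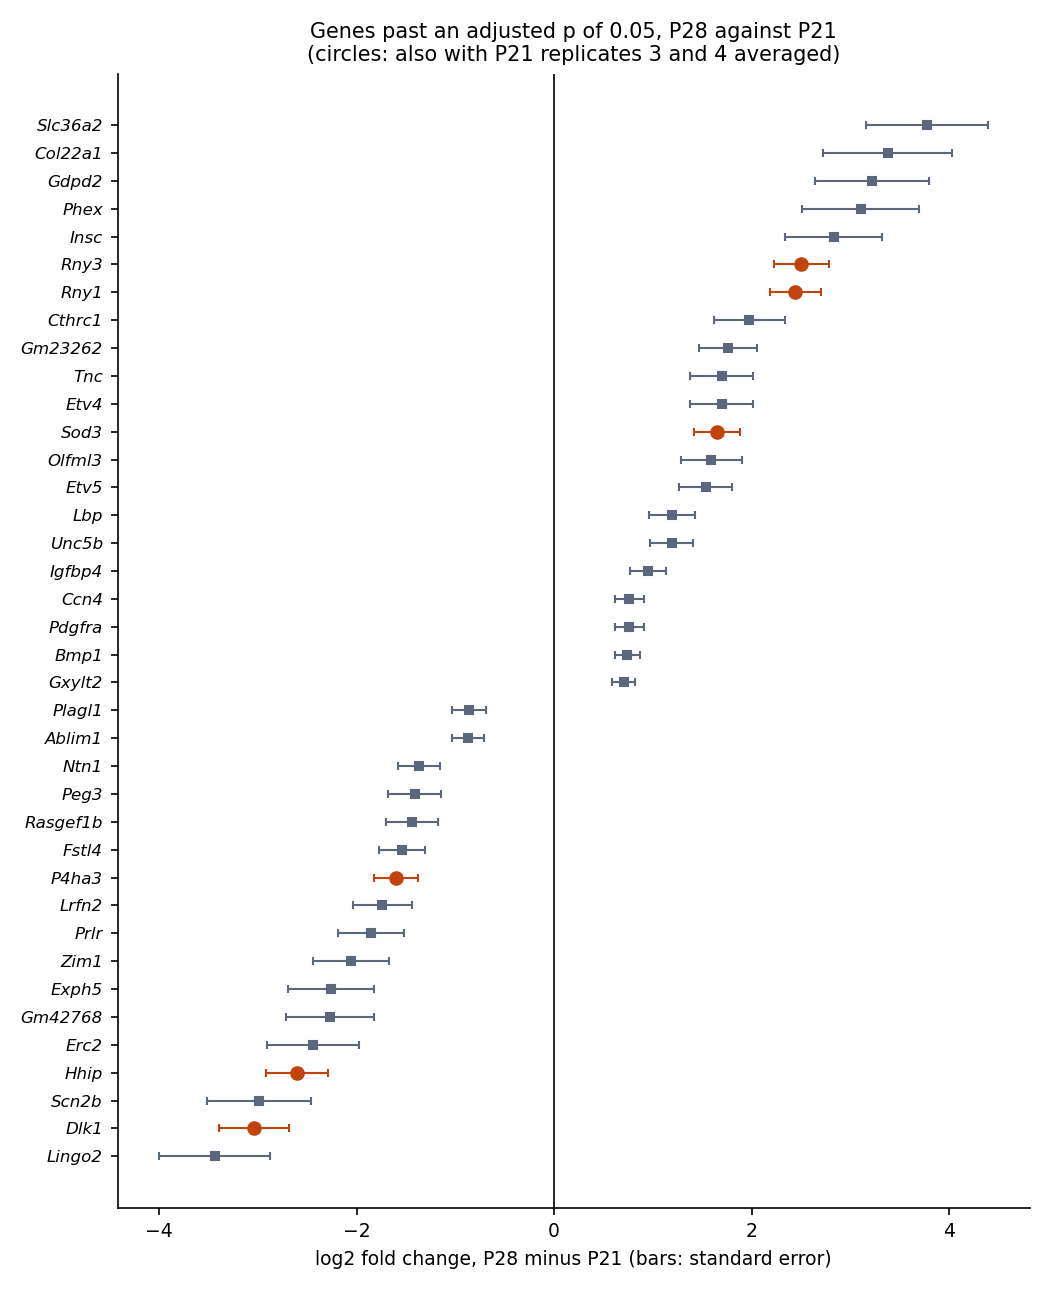
Log2 fold change of each of the 38 called genes, P28 minus P21, on the x axis, with bars of 1 standard error from limma and n = 4 libraries per age. Slc36a2 at 3.78 and Lingo2 at -3.44 stand at the ends, and the 6 circles mark the genes that were also called when P21 replicates 3 and 4 were averaged into 1 sample.

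The number of calls depended on the libraries. P21 replicates 3 and 4 differed by a chi-square of 2.62 per gene and correlated at 0.99 across genes, against 32.1 to 114 and 0.920 to 0.974 for the other pairs of pools at P21 and P28. They were kept as separate samples, as labelled, but whether they are separate pools or 1 pool prepared in duplicate cannot be told from the labels, and in that case P21 would have 3 independent samples where n = 4 is printed. Averaging them into 1 sample left 3 genes higher (Rny1, Rny3 and Sod3) and 3 lower (Dlk1, Hhip and P4ha3). These 6 genes also kept their calls in each fit that left out 1 library, with adjusted p of at most 0.0403. Fits without P21 replicates 1 and 2, given for some genes below, rest on replicates 3 and 4 alone for P21. If these are 1 pool, the adjusted p of such fits counts it more than once and is too small. With P21 represented only by the average of replicates 3 and 4, a setting added after the data were seen, none of the 38 was called. Leaving out 1 library gave 3 to 73 higher and 3 to 26 lower genes, with both lowest counts without P21 replicate 4 and both highest without P21 replicate 1. Fstl4 lost its call in 1 of these 8 fits, and the remaining called genes lost theirs in 4 to 7, with adjusted p of 0.0503 to 0.15. The fits without P21 replicate 4, P28 replicate 1 and P28 replicate 3 kept 6, 7 and 7 of the 38, that without P28 replicate 2 kept 9, and those without P21 replicate 1 and P28 replicate 4 kept 33 and 35. All called genes other than the 6 and Fstl4 therefore lost their calls without P21 replicate 4, P28 replicate 1 or P28 replicate 3, and this holds for each such gene below. Scaling every library to the same total moved the median of all genes from 0.02 to -0.17 on the log2 scale and changed the split from 21 higher and 17 lower to 4 higher and 14 lower. The direction of each of the 38 genes was the same in every setting in which it was tested.

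Some libraries stood apart. P21 replicates 1 and 2 held transcripts of the nervous system: Snap25, a synaptic protein that neurons use for vesicle release, had 840.1 and 747.5 normalised reads there, 44.8 and 35.7 in replicates 3 and 4, and 0, 0.67, 0 and 32.0 at P28. Xist had 10455, 18596, 18796 and 18383 normalised reads in P21 replicates 1 to 4 and 7710, 10460, 3817 and 141 in P28 replicates 1 to 4, although the labels give both sexes. P28 replicate 2 was level with P21 replicate 1, and the other P28 pools lay below every P21 pool. What part the sex mix of the pools had in the differences between the ages was not tested. P28 replicate 3 had 19.4% of its reads from Col1a1, against 9.03% to 15.7% in the others. Depth was similar throughout, from 17380812 to 24782845 reads in the table. Among the 21 genes that rose, P28 replicate 4 was the lowest P28 library for 19, and among the 17 that fell P28 replicate 3 was the lowest for 15.

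The tissue label was checked against genes that mark annulus and tendon cells. Col1a1, the main collagen of fibrous tissue, had a mean of 2031955 ± 467894 normalised reads at P21 and 2841802 ± 1155598 at P28 (SD, n = 4). Scx and Mkx, transcription factors of tendon-type cells, had means of 3297 and 1888 at P21 and 6181 and 2256 at P28. Tnmd, a tendon membrane protein, had 3573 and 5311. None of these markers was near 0 in any library, and none differed between the ages past the threshold. Markers of other cells were present too and are given beside the results they move with. In pooled tissue, fewer cells of a type and less RNA per cell cannot be told apart.

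The increases with the smallest adjusted p were in a pair of Y RNAs. Y RNAs are short noncoding transcripts made by RNA polymerase III. They bind the Ro60 protein, which takes part in the quality control of misfolded RNA, and they are linked to the start of DNA replication. Rny1 lies at chr6:47788069-47788180 on the minus strand and Rny3 at chr6:47781624-47781725 on the plus strand of build GRCm38, 6343 bases apart. The sequences below, from the GENCODE M21 transcripts, are shown because these genes had the smallest adjusted p. They are written 5′ to 3′ with T for U. Capitals mark the 8 bases at each end that pair with each other to close the stem, with G-U pairs allowed.
Rny1: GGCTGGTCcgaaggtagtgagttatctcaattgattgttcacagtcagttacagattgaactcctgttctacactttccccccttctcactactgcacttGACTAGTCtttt
Rny3: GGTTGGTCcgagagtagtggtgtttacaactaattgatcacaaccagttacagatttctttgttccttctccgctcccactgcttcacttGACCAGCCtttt
The 2 RNAs are 112 and 102 bases long, both end in a run of 4 T, and the longest stretch they share is 12 bases.

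Rny1 had 209, 127, 156 and 123 normalised reads in P21 replicates 1 to 4 and 998, 811, 770.4 and 723 in P28 replicates 1 to 4. All 4 P28 pools were far above all 4 P21 pools. The increase was 2.44 (SE 0.26) on the log2(value + 1) scale, with a limma adjusted p of 0.000989. Rny3 had 253, 128, 294 and 161 normalised reads at P21 and 1100, 1339, 1187 and 924 at P28, again with no overlap. It rose by 2.50 (SE 0.28; limma adjusted p = 0.00108). P21 was the lowest of the 4 ages for both, since Rny1 averaged 426 at P5 and 921 at P14, and Rny3 averaged 979 and 1676. Both genes were called with edgeR (adjusted p of 0.00255 and 0.00281) and without P21 replicates 1 and 2 (0.00394 and 0.0101).

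Other short RNAs were less uniform. Of 84 small nucleolar RNA genes tested, 1 was called higher, 9 lay wholly above P21 and 0 wholly below, with a median log2 fold change of 0.17 against 0.02 for all genes. Of these 84 genes 53 had a positive fold change and 31 a negative one, and 18 had an unadjusted limma p under 0.05. Of 63 small nuclear RNA genes, 4 lay wholly above, 0 wholly below and limma called 0, with 5 at an unadjusted p under 0.05, while 41 had a negative fold change and the median was -0.14. None of 95 microRNA precursor genes was separated in either direction, 69 were negative and the median was -0.33. The called one, Gm23262, rose by 1.76 (SE 0.29; limma adjusted p = 0.0265), from a mean of 52.6 ± 14.4 to 180 ± 42.4 (SD, n = 4), but 89.3% of its bases lie in exons of Eif4g2, a translation factor gene that gave 0.32 (limma adjusted p = 0.53). A low level at P21 was not particular to the Y RNAs. Gm23262 averaged 208 at P5 and 279 at P14, and Gm25939, a small nuclear RNA gene named after its values were seen, averaged 390.4, 479, 110.1 and 289 at P5, P14, P21 and P28. The small nuclear RNA genes summed to 5393 to 10664 normalised reads per library at P5, 3664 to 14263 at P14, 2065 to 3086 at P21 and 3364 to 4580 at P28. What part the recovery of short RNA had in the Y RNA increases was not tested. Of longer polymerase III transcripts chosen after their values were seen, Rn7sk, which holds back transcription elongation, gave -0.04 and Rmrp, the RNA of an RNA-processing ribonuclease, gave 0.47. Vaultrc5 gave 0.59 and Rn7s2 -0.54, and none of these passed. Rmrp was also low at P21, with means of 97105, 85702, 31107 and 43955 at P5, P14, P21 and P28. All of its exon bases are shared with another annotated gene of the same symbol. The Y RNAs are shorter than the reads of 150 bases, and how much RNA of this size each library kept was not measured. How the authors' counting treated reads that also match other copies in the genome is not given in the sources used here.

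**Figure D2:**
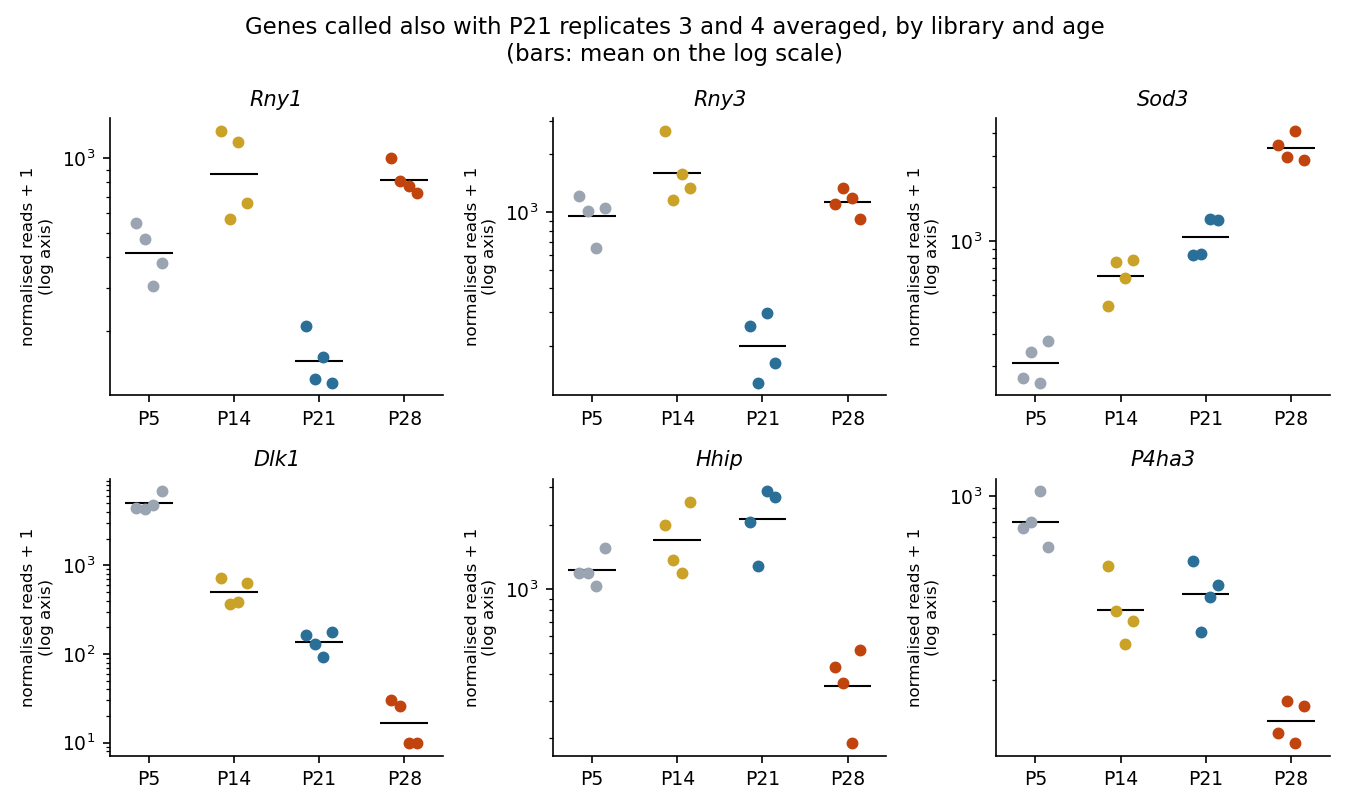
Normalised reads plus 1 (log axis) of the 6 genes that were also called with P21 replicates 3 and 4 averaged, at P5, P14, P21 and P28. Each point is 1 library and each bar the mean on the log scale of 4 libraries, and in each panel the P28 points lie wholly above or wholly below the P21 points.

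Genes that fell included several of the fetal and juvenile growth list, most of them imprinted. The list held 20 tested genes, of which 4 fell (Dlk1, Zim1, Peg3 and Plagl1), 0 rose, 7 lay wholly below P21 and 18 had a negative fold change. The median of the list was -0.87, against 0.02 over all genes. On this list edgeR called 1, Dlk1, and DESeq2 called 7, and Peg3, Zim1 and Plagl1 each had an edgeR adjusted p of 0.0604. With every library scaled to the same total the list's median was -1.06, and without P21 replicates 1 and 2 it was -0.67 with 1 call.

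Dlk1, a membrane protein of immature cells that is read from the paternal copy, had 163, 130, 91.2 and 176 normalised reads at P21. At P28 it had 29.1, 24.9, 8.88 and 9.02. Its decrease of 3.04 (SE 0.35; limma adjusted p = 0.00118) followed means of 5086 at P5 and 526 at P14, so its level was lower at each age than at the one before. The ratio of means between P21 and P28 was 7.78. Meg3, the maternally read noncoding RNA of the same cluster on chromosome 12, gave -0.75 (limma adjusted p = 0.425) with overlapping groups.

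Peg3 and Zim1 are imprinted zinc finger genes that lie next to each other on chromosome 7, with 7441 bases between them. Peg3 (chr7:6703892-6730431, minus strand) is read from the paternal copy, as is Usp29, a ubiquitin protease gene that starts in the opposite direction from the same promoter. Peg3 had 21503, 19368, 21017 and 21076 normalised reads at P21 and 7094, 10428, 4988 and 10008 at P28. The P21 pools lay close together and the P28 pools were spread, all below them. Peg3 fell by 1.41 (SE 0.27; limma adjusted p = 0.047). Zim1 had 2112, 2185, 2170 and 2125 at P21 and 449, 936, 231 and 727 at P28, and fell by 2.06 (SE 0.38; limma adjusted p = 0.044). Usp29, named after its values were seen, had 393, 279, 485 and 397 at P21 and 87.2, 177, 57.2 and 169 at P28, also with no overlap, but at -1.78 its adjusted p was 0.0857, and 14.8% of its exon bases are shared with Zim3. In each of the 3 genes P28 replicate 3 was the lowest and P28 replicate 2 the highest of the P28 pools. Peg3 and Zim1 lost their calls in 6 and 5 of the 8 fits that left out 1 library, Zim1 without P21 replicate 2, 3 or 4 or P28 replicate 1 or 3 and Peg3 also without P28 replicate 2, with adjusted p of 0.0611 to 0.148.

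The stretch between the RefSeq starts of Peg3 and Usp29 is shown because both genes leave from it, in opposite directions. It is chr7:6730420-6730582 of build GRCm38.p6, 163 bases, printed 5′ to 3′ on the plus strand so that Usp29 lies to the right and Peg3 to the left. Capitals mark CCAAT, the motif of the NF-Y factor, searched on both strands.
Peg3 to Usp29: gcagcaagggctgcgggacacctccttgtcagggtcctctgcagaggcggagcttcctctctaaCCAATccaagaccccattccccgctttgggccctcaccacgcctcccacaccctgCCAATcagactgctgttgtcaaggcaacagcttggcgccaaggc
The stretch holds the motif at 2 places, with no overlap between them. The motif is frequent, since 37.4% of 32851 RefSeq promoter windows of 300 bases hold it on either strand. Of the 24 called genes with such a window, 11 had it in at least 1 window, and 41.1% of all genes with a window did. A match of these letters is a description of the sequence and not a site.

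Plagl1, a paternally read zinc finger gene that restrains the cell cycle, had 5288, 5579, 5223 and 5463 normalised reads at P21 and 3217, 2424, 2804 and 3542 at P28. It fell by 0.86 (SE 0.17; limma adjusted p = 0.0488), with means of 27456 at P5 and 13195 at P14. It was the called gene nearest the threshold, and it lost its call in 7 of 8 fits without 1 library, those without any 1 P21 library or P28 replicate 1, 2 or 3 (adjusted p of 0.0514 to 0.147). Igf2, the fetal growth factor, had 23899, 22002, 11300 and 13631 normalised reads at P21 and 10048, 9421, 7222 and 5363 at P28. The groups did not overlap, but the difference of -1.12 had an adjusted p of 0.15, and 64.5% of the exon bases of Igf2 lie in another annotated gene. H19, its maternally read neighbour, gave -1.49 (limma adjusted p = 0.188) with overlap. Hmga2, a chromatin protein of growing tissue, and Igf2bp3, a fetal RNA-binding protein, gave -1.05 and -0.61 with no overlap and adjusted p of 0.159 and 0.0826. Grb10, an imprinted brake on insulin and IGF signalling, stood at -0.08.

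**Figure D3:**
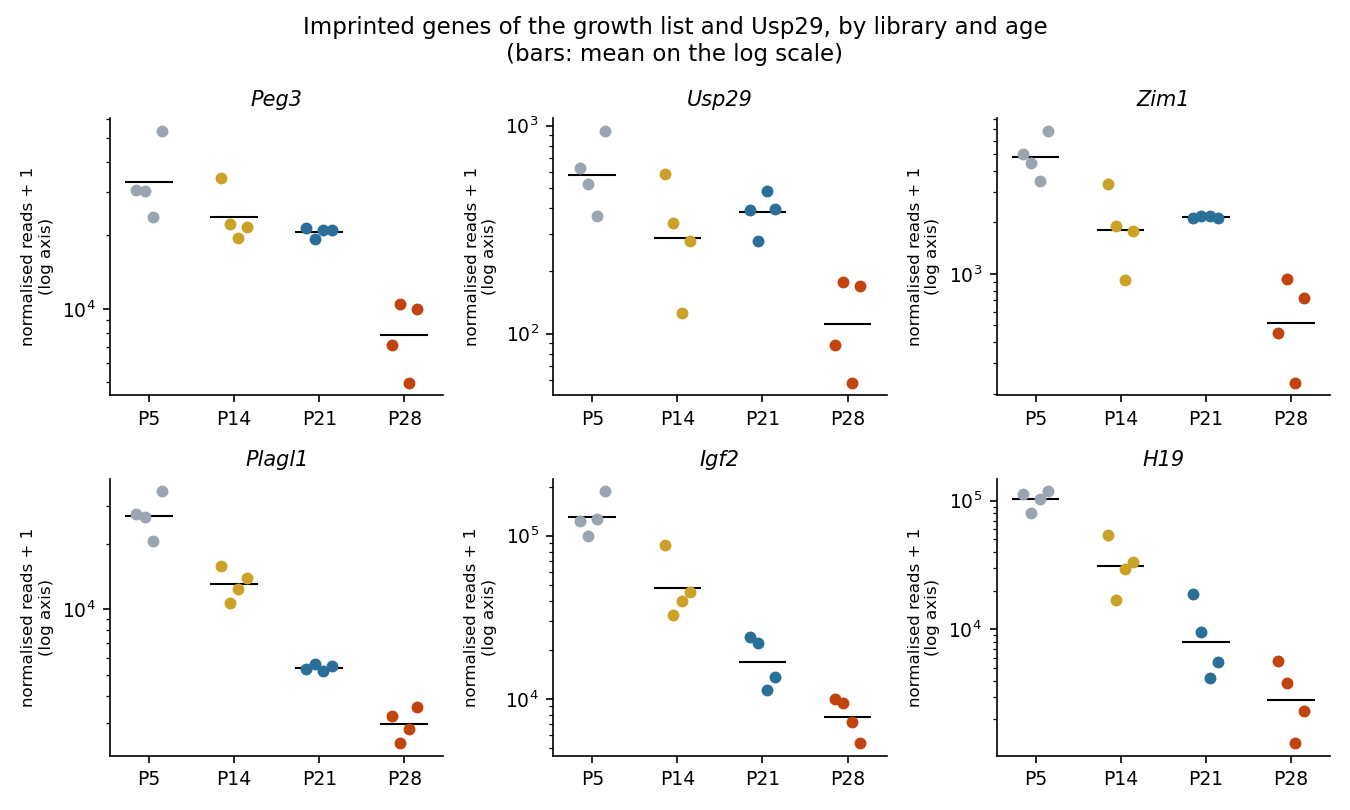
Normalised reads plus 1 (log axis) of Peg3, Usp29, Zim1, Plagl1, Igf2 and H19 by library at P5, P14, P21 and P28, with bars at the mean on the log scale of 4 libraries. All P28 points lie below all P21 points except for H19, where the groups overlap.

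Hhip, the membrane protein that binds and sequesters Hedgehog ligands and is itself a target of the pathway, was the gene of the Hedgehog list that changed. It had 2070, 1288, 2881 and 2715 normalised reads at P21 and 431, 360, 188 and 514 at P28. Every P28 pool was below every P21 pool. Hhip fell by 2.61 (SE 0.31; limma adjusted p = 0.00137), and by 2.99 without P21 replicates 1 and 2 (adjusted p = 0.00394). Its means at P5 and P14 were 1246 and 1777, so P28 was the lowest of the 4 ages. The other 8 genes of the list did not pass with limma, edgeR or DESeq2, and the list's median was 0.10. Among them were Gli1, a transcription factor that the pathway induces, at -0.51 (limma adjusted p = 0.524), the receptor Ptch1 at 0.06 (0.975), the ligand Ihh at -0.04 (0.99) and Smo, the signal transducer, at 0.32 (0.318). Smo lay wholly above P21, with 4806 ± 460 against 3848 ± 443 normalised reads (SD, n = 4).

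Genes that build or process the collagen matrix gave calls in both directions. P4ha3, the third catalytic subunit of the prolyl 4-hydroxylase that stabilises the collagen helix, had 564, 303, 412 and 458 normalised reads at P21. At P28 it had 124, 165, 114 and 159, less than any P21 pool. It fell by 1.60 (SE 0.22; limma adjusted p = 0.00609). The subunit genes P4ha1 and P4ha2, named after their values were seen, gave 0.26 and 0.15. Bmp1, the protease that cuts the C-terminal propeptide from procollagen, rose by 0.74 (SE 0.12; limma adjusted p = 0.0265), from 2312, 2576, 2332 and 2579 to 4221, 3776, 4769 and 3705. In the collagen processing list of 29 genes these were the limma calls and edgeR called 2, while DESeq2 called 3 and 14 had an unadjusted p under 0.05. Of its genes 26 had a positive fold change, 8 lay wholly above P21 and 2 wholly below, and the median was 0.44 (0.25 when all libraries had the same total). Lox, which crosslinks collagen and elastin, lay wholly above P21 at 0.78 without passing (adjusted p = 0.403).

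Tnc, the large glycoprotein tenascin-C of growing and loaded connective tissue, had 3488, 2390, 1306 and 1242 normalised reads at P21 and 6931, 7133, 6854 and 4405 at P28. P28 replicate 4 was low among its group and still above every P21 pool. Tnc rose by 1.70 (SE 0.32; limma adjusted p = 0.047), after means of 8663 at P5 and 7421 at P14. Without P21 replicates 1 and 2, the higher P21 pools, the increase was 2.29 (adjusted p = 0.00977). Cthrc1, a secreted protein with a short collagen repeat, had 101, 36.0, 38.1 and 36.5 at P21 and 284, 221, 174 and 119 at P28, so that only P21 replicate 1 came near the P28 range. It rose by 1.98 (SE 0.36; limma adjusted p = 0.0391), after means of 414 at P5 and 185 at P14. These were the limma calls among 17 tenascins, thrombospondins and adhesive glycoproteins, whose median was 0.28. With edgeR neither passed (adjusted p of 0.0604 for Tnc and 0.0584 for Cthrc1).

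Col22a1, a fibril-associated collagen known from tissue junctions, had 139, 36.0, 65.0 and 34.2 normalised reads at P21 and 760.4, 940, 444 and 439.6 at P28. Its increase of 3.38 (SE 0.66; limma adjusted p = 0.047) was the second largest increase among the calls, after that of Slc36a2. At P5 its mean was 568 with an SD of 796, so it varied widely between those pools. Col22a1 was the limma call among 11 fibril-associated and type VI collagens, whose median was 0.10. Of these 11 genes 6 had a positive and 5 a negative fold change, 1 lay wholly above P21 and 2 wholly below. On this list edgeR called 0 (adjusted p of 0.0726 for Col22a1), DESeq2 called 3 and 3 had an unadjusted p under 0.05. Sod3, the superoxide dismutase of the extracellular space, had 833, 842, 1329 and 1309 at P21 and 3432, 2944, 4130 and 2843 at P28. It rose by 1.65 (SE 0.23; limma adjusted p = 0.00609), and its means of 211 at P5 and 650 at P14 mark a level that was higher at each later age. Without P21 replicates 1 and 2 the increase of Sod3 was 1.32 (limma adjusted p = 0.0496). The other 18 genes of the oxidative stress list were not called by limma, edgeR or DESeq2, and the list's median was 0.22. Olfml3, a secreted olfactomedin-domain protein, rose by 1.59 (SE 0.31; limma adjusted p = 0.047), from a mean of 300.1 ± 119 to 889 ± 235 (SD, n = 4). Its means at P5 and P14 were 748 and 400.

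The small leucine-rich proteoglycans, which bind collagen fibrils and set their width, gave 0 calls among 13 genes, with 6 wholly above and 1 wholly below P21 and a median of 0.28. By the unadjusted p, 8 of the 13 were under 0.05, and DESeq2 called 6 where edgeR called 0. Lum, the gene of lumican, had 126, 18.9, 74.0 and 69.9 normalised reads at P21 and 708, 489, 230 and 177 at P28, a difference of 2.51 with an adjusted p of 0.055. Dcn, the gene of decorin, differed by 1.41 (limma adjusted p = 0.0752), with P21 replicate 2 the lowest at 534. At P5 Lum and Dcn averaged 730 and 5424, above their P28 means of 401 and 3011. Chad and Prelp, abundant leucine-rich repeat proteins of cartilage and annulus, gave 0.98 and 0.75 with no overlap and adjusted p of 0.28 and 0.183. The fibrillar collagens, 11 genes, gave 0 calls by limma or edgeR, 1 by DESeq2 and 1 at an unadjusted p under 0.05, with a median of 0.30. Col1a1, Col1a2, Col2a1 and Acan overlapped between the ages at 0.44, 0.37, 0.38 and 0.20. Eln, the elastin gene, lay wholly above P21 at 0.74 without passing (adjusted p = 0.325), and Comp and Sox9 overlapped at 0.49 and 0.20.

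One bone gene was among the largest increases. Phex, an endopeptidase of osteocytes that controls phosphate handling, had 427, 37.8, 134 and 118 normalised reads at P21 and 1414, 1657, 848 and 732 at P28. It rose by 3.10 (SE 0.59; limma adjusted p = 0.047). Dmp1, a matrix protein of osteocytes, had 179, 34.1, 49.3 and 32.6 at P21 and 1003, 1280, 962 and 738 at P28, and its difference of 4.10 had an adjusted p of 0.0537. In both genes P21 replicate 1 was the highest P21 pool and still well below the P28 range. Bglap, the gene of osteocalcin, gave 3.42 with no overlap and an adjusted p of 0.113. Of the 13 osteoblast and osteocyte markers tested all had a positive fold change and 7 lay wholly above P21, and limma called Phex. On this list edgeR called 0, DESeq2 called 7 and 9 had an unadjusted p under 0.05. The median was 1.89, and 2.23 without P21 replicates 1 and 2.

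Summed over the 12 markers other than Col1a1, which outweighs the rest and is a main annulus gene, the level was 23256, 11358, 9213 and 9190 in the P21 pools and 30441, 37308, 18997 and 17391 in the P28 pools. P21 replicate 1 exceeded P28 replicates 3 and 4, and it was the highest P21 pool for each of the 12 genes. Of 11 osteoclast markers tested, 8 lay wholly above P21 and 0 below, the median was 2.58, and the summed level was 13415, 5674, 5511 and 5629 at P21 and 36093, 23274, 19496 and 15317 at P28. No osteoclast marker was called by limma or edgeR, while DESeq2 called 5 and 9 had an unadjusted p under 0.05. Acp5, Ctsk and Itgb3, which osteoclasts use to dissolve and grip bone, gave 3.85, 2.53 and 2.55 with adjusted p of 0.056, 0.055 and 0.0572.

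Among other genes with large increases, Slc36a2, a proton-coupled amino acid transporter, had 40.6, 7.57, 11.2 and 4.76 normalised reads at P21 and 196, 288, 133 and 115 at P28, an increase of 3.78 (SE 0.62; limma adjusted p = 0.0264). With edgeR Slc36a2 did not pass (adjusted p = 0.0546). Gdpd2, a membrane phosphodiesterase, rose by 3.22 (SE 0.58; limma adjusted p = 0.0391), and Insc, an adaptor that orients the mitotic spindle, by 2.83 (SE 0.49; limma adjusted p = 0.0331), both named because they were called. In all 3 genes P21 replicate 1 was the highest P21 pool and P28 replicates 1 and 2 were above replicates 3 and 4, as in the osteoblast marker sum. Of the 21 genes that rose, P21 replicate 1 was the highest P21 pool for 13, Cthrc1, Tnc and Olfml3 among them. Replicates 2, 3 and 4 were the highest for 2, 5 and 1. What part bone cells had in the increases of Phex, Slc36a2, Gdpd2, Insc, Col22a1, Cthrc1, Tnc and Olfml3 was not tested.

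**Figure D4:**
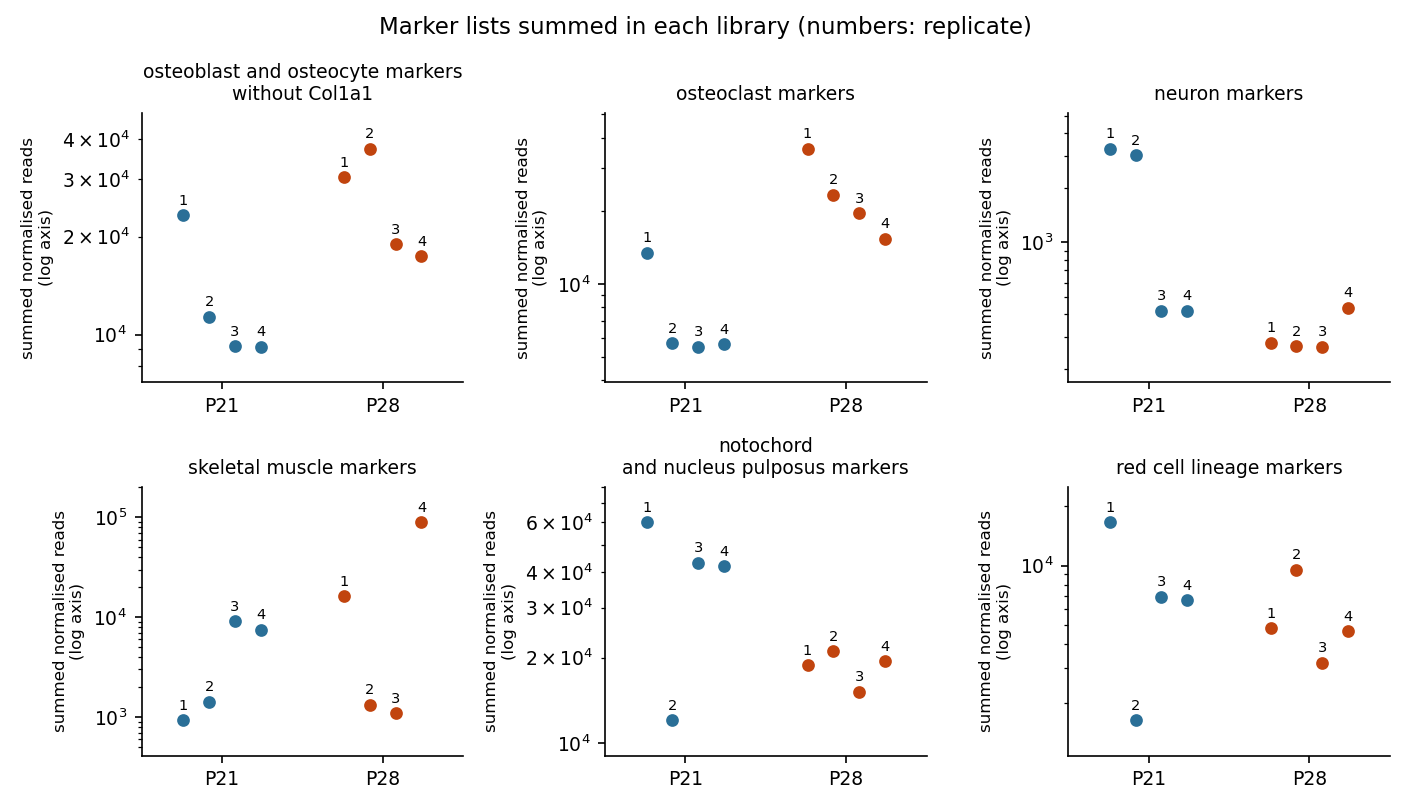
Normalised reads summed over each cell type list (log axis) in the P21 and P28 libraries, with the replicate number beside each point. Osteoclast markers are wholly higher at P28, neuron markers stand out in P21 replicates 1 and 2, and muscle markers reach 89609 in P28 replicate 4.

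Etv4 and Etv5 both rose. They are transcription factors of the PEA3 family and known targets of FGF and ERK signalling. Etv5 had 547, 378, 407 and 397 normalised reads at P21 and 1069, 1453, 1885 and 813 at P28, and rose by 1.54 (SE 0.27; limma adjusted p = 0.0331). Etv4 had 73.3, 145, 61.3 and 59.6 at P21 and 201, 404, 294 and 185 at P28, and rose by 1.70 (SE 0.32; limma adjusted p = 0.044). In both, P28 replicate 4 was the lowest P28 pool. With edgeR the adjusted p was 0.0351 for Etv5 and 0.057 for Etv4.

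Pdgfra, the PDGF receptor of mesenchymal cells, was the limma call among 22 genes of the FGF, PDGF and VEGF list, whose median was 0.31. On this list edgeR called 1 and DESeq2 5, and 6 had an unadjusted p under 0.05. Pdgfra had 754, 976, 856 and 775 normalised reads at P21 and 1458, 1384, 1795 and 1109 at P28, and rose by 0.76 (SE 0.15; limma adjusted p = 0.047). Its means at P5 and P14 were 1387 and 835. Pdgfrb, the second receptor, lay wholly above P21 at 0.66 and missed the threshold at 0.0537. Igfbp4, which binds and restrains IGFs, was the limma call among 16 genes of the IGF axis, where edgeR called 0 (0.0546 for Igfbp4), DESeq2 called 3 and 7 had an unadjusted p under 0.05. Its 4487, 3152, 3161 and 3439 normalised reads at P21 compared with 6037, 6253, 10812 and 5253 at P28, an increase of 0.95 (SE 0.19; limma adjusted p = 0.047), and the list's median was -0.06. Igfbp4 averaged 8512 at P5 and 5404 at P14. Igf1 overlapped between the ages at 0.65 (limma adjusted p = 0.78).

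Ntn1 fell and Unc5b rose. Ntn1, the secreted guidance ligand Netrin-1, had 1351, 1252, 2159 and 2298 normalised reads at P21 and 731, 893, 451 and 645 at P28. It fell by 1.37 (SE 0.21; limma adjusted p = 0.0193), and it lost its call without P21 replicate 3 or 4 or P28 replicate 1 or 3 (0.0547 to 0.0755). Unc5b, a receptor that binds it, had 828, 735, 572 and 612 at P21 and 1720, 1587, 1760 and 1211 at P28, and rose by 1.19 (SE 0.22; limma adjusted p = 0.0413). Neo1, another receptor, named after its values were seen, gave -0.01. Without P21 replicates 1 and 2, Ntn1 fell by 1.75 (adjusted p = 0.00394) and Unc5b rose by 1.39 (0.0496).

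Ccn4, a matricellular protein induced by Wnt signalling, rose by 0.76 (SE 0.15; limma adjusted p = 0.047), from a mean of 806 ± 172 to 1351 ± 158. It averaged 1657 at P5 and 1120 at P14. Lbp, which binds bacterial lipopolysaccharide and is known from the acute phase response, rose by 1.20 (SE 0.23; limma adjusted p = 0.047), from 700.2 ± 180 to 1605 ± 401. Its means of 138 at P5 and 604 at P14 place P28 as the highest age. Gxylt2, an enzyme that adds xylose to the sugar chains of Notch, rose by 0.70 (SE 0.12; limma adjusted p = 0.0265), from 1135 ± 164 to 1837 ± 129. Among these 3 errors are SD over 4 libraries. The 13 tested genes of the Notch list gave 0 calls by limma, edgeR or DESeq2 and 4 at an unadjusted p under 0.05, with a median of 0.21. Tgfb1, the growth factor that drives matrix production, lay wholly above P21 at 0.73 (limma adjusted p = 0.0703). Grem1, a BMP antagonist, had means of 30892 and 57191 with overlap (adjusted p = 0.326).

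Among further decreases, Fstl4, a secreted follistatin-like protein, had 158, 138, 141 and 169.9 normalised reads at P21 and 64.5, 67.4, 30.6 and 51.7 at P28. It fell by 1.54 (SE 0.23; limma adjusted p = 0.014), and only the fit without P21 replicate 4 lost the call (0.0749). Rasgef1b, an activator of Ras-type GTPases, fell by 1.44 (SE 0.26) and Ablim1, an actin-binding protein, by 0.87 (SE 0.16), both with an adjusted p of 0.0413. Ablim1 averaged 2195 ± 197 at P21 and 1199 ± 80.4 at P28 (SD, n = 4), with P21 replicate 2 the lowest of its group at 1904. The prolactin receptor gene Prlr fell by 1.85 (SE 0.34; limma adjusted p = 0.0405), from 40.1 to 10.2 normalised reads on average. Exph5, which links Rab27 to vesicle transport, and the predicted gene Gm42768 fell by 2.26 and 2.27 (limma adjusted p = 0.047 for both), from means of 30.0 and 37.7 to 5.65 and 6.72. Prlr, Exph5 and Gm42768 lay outside the naming rule and were named because they were called.

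The remaining 4 decreases were in genes known mainly from neurons. Scn2b, a subunit of voltage-gated sodium channels, had 126, 93.7, 29.9 and 30.2 normalised reads at P21 and 7.27, 8.09, 1.97 and 12.3 at P28. It fell by 2.98 (SE 0.53; limma adjusted p = 0.0351), and without P21 replicates 1 and 2 the difference was -2.07 (adjusted p = 0.131). Erc2, a scaffold of the presynaptic active zone, had 251, 192, 134 and 137 at P21 and 26.4, 45.8, 14.8 and 50.8 at P28, and fell by 2.44 (SE 0.47; limma adjusted p = 0.047). Lingo2, a neuronal membrane protein, fell by 3.44 (SE 0.56; limma adjusted p = 0.0264). Lrfn2, a synaptic adhesion protein, did not share the tilt within P21, with 56.6, 67.2, 68.0 and 58.8 there and 17.3, 23.6, 15.8 and 16.4 at P28, and fell by 1.74 (SE 0.30; limma adjusted p = 0.0331). Without P21 replicates 1 and 2, Erc2, Lingo2 and Lrfn2 gave -2.09, -2.79 and -1.75 with adjusted p of 0.16, 0.101 and 0.0785. At P5 and P14, Scn2b averaged 93.8 and 56.8, Erc2 35.9 and 72.0, Lingo2 12.6 and 8.065 and Lrfn2 45.6 and 45.4. Snap25 averaged 2.31 at P5 and 70.4 at P14, with 269.5 in P14 replicate 2.

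The 18 neuron markers tested gave 0 calls by limma or edgeR, 6 by DESeq2 and 11 at an unadjusted p under 0.05. Their median was -2.43 with all libraries and -0.44 without P21 replicates 1 and 2. Their summed level was 3285, 3026, 419.9 and 419 in the P21 pools and 279.8, 267, 266 and 436 in the P28 pools. What part this material had in the decreases of Scn2b, Erc2, Lingo2 and Lrfn2 was not tested.

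By other tools the counts differed. With edgeR, 11 genes were higher (0.0626%) and 13 lower (0.074%), together 0.137% of those tested, and 23 of these 24 were among the 38. With DESeq2, 270 were higher (1.54%) and 398 lower (2.26%), together 3.8% of the 17574 genes with an adjusted p, and all 38 were among them. Without P21 replicates 1 and 2, limma gave 35 higher (0.199%) and 14 lower (0.0796%), together 0.279%, and kept 19 of the 38. Among the genes that rose, Gm23262, Etv5, Gxylt2, Bmp1, Col22a1, Lbp, Igfbp4 and Pdgfra lost their calls there (adjusted p of 0.0555 to 0.189). Among those that fell, Ablim1, Lrfn2, Prlr, Scn2b, Erc2, Lingo2, Zim1, Peg3, Plagl1, Exph5 and Gm42768 lost theirs (0.0647 to 0.16).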

How the data were processed

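Ribosomal-RNA-depleted RNA of annulus pools was sequenced as pairs of 150-base reads. Per the submitters' processing notes, tools were bcl2fastq 2.20, Trimmomatic 0.36, STAR 2.5.2b, featureCounts of Subread 1.5.2 and DESeq2, with build GRCm38. The strand setting and the treatment of reads that match several places are not given in the sources used here. The deposited signal is the authors' normalised count per gene, on a linear scale with 1 divisor per library. Undoing that divisor returned whole reads (within 0.001) for 100% of the values. No gene had a total under 161 reads, so rarer genes are not in the table. Of the 17724 genes, 17677 matched GENCODE M21, which gave symbols and positions.

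limma 3.58.1 (trend, two-sided, R 4.3.3) tested genes whose mean was 10 or more on log2(value + 1), with a mean for each of 4 ages, which had 12 residual and 4.16 prior degrees of freedom. The contrast was P28 minus P21, with Benjamini-Hochberg adjustment and a threshold of 0.05. A fold change on this scale understates the change of low genes. Of 56 gene lists, members called and medians were counted and no set test was run. Genes were named by rule: up to 15 called in each direction with a mean of at least 100 at the higher age and no overlap, up to 4 called members of a list or its 2 most abundant if none was called, 16 genes followed whatever their result, and the 5 with the smallest p in each direction. Some other list members and neighbours were named after their values were seen, among them Lum, Dcn, Dmp1, Bglap, Acp5, Ctsk, Itgb3, Pdgfrb, Igf2, H19, Hmga2, Igf2bp3, Meg3, Grb10, Chad, Prelp, Ptch1, Smo, Ihh and Snap25, as were the called genes Lingo2, Scn2b, Lrfn2, Gxylt2, Insc and Gdpd2. The lists and this comparison were chosen with earlier results of these data known. Alternatives ran the recovered reads through edgeR 4.0.16 or DESeq2 1.42.0, or took other scalings, filters and pseudocounts, and fewer libraries. The fit was tested on simulated data in which every library was drawn independently. That test does not cover replicates as alike as P21 replicates 3 and 4. Tables and figures used Python 3.11.15, NumPy 2.4.6, pandas 2.3.3 and Matplotlib 3.10.9.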

Additional observations from a re-analysis of the deposited data

Results flagged for a closer look

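In 15 of 160 groups of 4 libraries, over 80 named genes, 1 library stood far from its group, as measured by its gap to the nearest library divided by the range of the group. Gap and range were taken on the log2(value + 1) scale, while the values printed below are normalised reads. Chance flags about 1 in 20 groups of 4 independent values. That rate does not hold for the P21 groups, where replicates 3 and 4 were nearly alike, and the P21 flags were all for replicate 1 or 2. Neither these genes nor these groups are independent of each other. P21 replicate 1 was far above its group for Cthrc1 (101 normalised reads, ratio 0.944), Acp5 (1119, ratio 0.888), Mki67 (3822, ratio 0.833), Acan (137220, ratio 0.836), Grb10 (5251, ratio 0.885) and Ihh (152, ratio 0.886), and far below it for Col1a2 (524509, ratio 0.856). P21 replicate 2 was far below for Gxylt2 (890.4, ratio 0.880), Ablim1 (1904, ratio 0.847), Dcn (534, ratio 0.934) and Igf1 (171, ratio 0.834). P28 replicate 3 was far above for Col1a1 (4573261, ratio 0.920) and Col1a2 (1482746, ratio 0.887). P28 replicate 4 was far below for Tnc (4405, ratio 0.917) and far above for Snap25 (32.0 against 0 to 0.67, ratio 0.853).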

How the results depend on the processing

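The counts of calls, 21 higher and 17 lower at P28, moved with the setting, while each of the 38 genes kept its direction in the settings that tested it. A pseudocount of 5 gave 47 and 31, the same total in every library 4 and 14, the P21 and P28 libraries alone 43 and 39, and P21 without replicates 1 and 2 gave 35 and 14. Averaging P21 replicates 3 and 4 gave 3 and 3, and their average as the only P21 sample 0 and 1 (Il6ra), where the lone sample is assumed to vary like the other ages. edgeR gave 11 and 13 on all libraries and 18 and 19 on the P21 and P28 libraries, and DESeq2 gave 270 and 398. The last of the P21 settings and edgeR on 8 libraries were added after the data were seen. Leaving out 1 library gave 3 to 73 higher and 3 to 26 lower. A replicate block gave 99 higher and 42 lower, but the numbers are no known pairing: same-numbered pools correlated in their deviations at 0.37, 0.12, 0.15 and -0.14, and P21 replicates 2 and 4 did not correlate best with their own numbers. Other pseudocounts, filters, scalings and robust limma stayed within 1.5 times of both counts. Of the named genes, 368 results under an alternative lost a call that the reported fit made, 50 gained one and 1495 did neither. The cause was not tested. Depth was alike across the 8 libraries, and genes under a mean of 10 normalised reads were not assessed.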

Other observations

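Several gene lists leaned in a single direction without a called member. All 35 nuclear genes of oxidative phosphorylation, which encode parts of the respiratory chain, had a positive fold change with a median of 0.28, while all 13 genes encoded in mitochondrial DNA had a negative one with a median of -0.37. When every library was scaled to the same total the medians were 0.09 and -0.56. Of 27 genes of endoplasmic reticulum chaperones and secretion, 26 were positive, with a median of 0.33 (0.13 at the same total). All 27 genes of the G2/M list were negative, with a median of -0.46 that came to -0.18 without P21 replicates 1 and 2, and Mki67, the proliferation marker, had 3822 normalised reads in P21 replicate 1 against 1250 to 1506 in the other P21 pools. None of these genes was called by limma, edgeR or DESeq2, and at an unadjusted p under 0.05 the counts were 5, 0, 3 and 0. In these 4 lists 35, 13, 23 and 27 genes overlapped between the ages. Genes of a list were measured in the same libraries, so their shared signs are not independent results.

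Interferon response genes, which cells use against viruses, were negative for 18 of 19, with a median of -0.57, and sterol synthesis genes for 21 of 23, with a median of -0.25. By limma, edgeR and DESeq2 0 of either list were called, and 2 and 1 had an unadjusted p under 0.05. Markers of notochord and nucleus pulposus, the tissue inside the ring, summed to 60138, 12031, 43297 and 42062 in the P21 pools and 18814, 21013, 15150 and 19418 in the P28 pools, so that P21 replicate 2 lay below every P28 pool and the other 3 above. Muscle markers summed to 934, 1430, 9165 and 7480 at P21 and 16227, 1336, 1101 and 89609 at P28, with overlap between the ages. B cell markers were negative for 7 of 7, with a median of -1.49, 0 calls by limma or edgeR, 1 by DESeq2 and 5 at an unadjusted p under 0.05.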
